A study of Mus musculus with 2 samples.

Results

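Transcripts of 10 antioxidant enzymes were examined in single mouse pseudoblastocysts: the 6 peroxiredoxins Prdx1 to Prdx6, the superoxide dismutases Sod1 and Sod2, and the glutathione peroxidases Gpx1 and Gpx4. They were chosen by name, without a threshold on their values but with earlier results of these data known, and make up 10 of the 52366 genes in the count table. RNA had been sequenced from 24 individual embryos, 6 of each of 4 kinds, all cultured to 96 h postinsemination (hpi) in vitro. 2CB, 4CB and 8CB embryos had each grown from 1 blastomere isolated from a 2-cell embryo at 24 hpi or from a 4-cell or 8-cell embryo at 48 hpi, and 1C embryos had grown from a zygote freed of its zona pellucida at 5 hpi. All came from B6D2F1 oocytes fertilized in vitro with ICR sperm, and all had lost the zona to the protease Actinase E. A pseudoblastocyst was recognized by its cavity alone, without a check for an inner cell mass (ICM), so the groups may include vesicles of trophectoderm (TE). The libraries were made in 2 pools, 1C with 8CB and 2CB with 4CB. A difference between these pairs of groups and a difference between the pools therefore cannot be told apart, and the comparisons within a pool are 8CB with 1C and 4CB with 2CB.

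Respiring cells release superoxide, mostly from mitochondria, and superoxide dismutases convert it to hydrogen peroxide. Peroxiredoxins and glutathione peroxidases then reduce the peroxide to water, the former with a reactive cysteine that is mostly recharged by thioredoxin and the latter mostly with glutathione, while both routes draw their electrons in the end from NADPH. Preimplantation embryos rely on these enzymes because oxygen and culture media raise peroxide, and the enzymes are divided among the cytosol (Prdx1, Prdx2, Prdx6, Sod1), the mitochondrial matrix (Prdx3, Sod2), the secretory pathway (Prdx4) and several compartments at once (Prdx5, Gpx1, Gpx4).

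The libraries were counted in unique molecular identifiers (UMIs), and levels are given as UMIs per 1000000 UMIs of the embryo (CPM). Total UMIs of the 1C embryos ran from 123594 to 368348 and those of the 8CB embryos from 70941 to 356749, against 332867 to 1507471 for 2CB and 132725 to 1130360 for 4CB. The medians were 244312 for 1C, 313283 for 8CB, 519932 for 2CB and 216325 for 4CB, so low levels were measured most finely in 2CB embryos. The markers of the 3 blastocyst lineages also moved with the groups. The summed level of 10 TE markers was 501 to 1093 CPM over the 12 1C and 8CB embryos, against 3138 to 6607 CPM over the 12 2CB and 4CB embryos, without overlap, with 8 of the 10 higher and 1 lower by the test described below, and Elf5 had 0 UMIs in 1C and 1 UMI in 8CB. The summed level of 8 primitive endoderm markers was 639.6 to 1141 CPM against 814 to 2356 CPM (5 of 6 tested higher, 1 lower), with Sox7 at 0 UMIs in 1C and 8CB, Lama1 at 0 in 1C and Sox17 at 0 in 8CB. For 9 epiblast and ICM markers the sums were 536 to 1943 CPM against 311 to 989 CPM (3 of 6 tested higher, 3 lower), with Fgf4, Prdm14 and Spp1 at 0 in 1C, and with Pou5f1, a defining marker, at 33 UMIs in all 24 embryos together. Beside these counts, 31.3% of all genes tested were higher and 24% lower. Elf5, Id2, Krt8, Sox17, Lama1 and Spp1 reached the level of the filter on low counts in 0 of the 1C and 8CB embryos. Cdx2, Dppa1, Krt18, Pdgfra, Col4a1, Sox2 and Tdgf1 reached it there in fewer than the 6 embryos needed. All of these passed the filter through 2CB and 4CB embryos, so their calls add no support. The part of the lineage markers and of depth in the results below was not tested except where a value is given. Fewer cells of a type and less RNA per cell cannot be told apart in RNA from whole embryos.

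**Figure D1:**
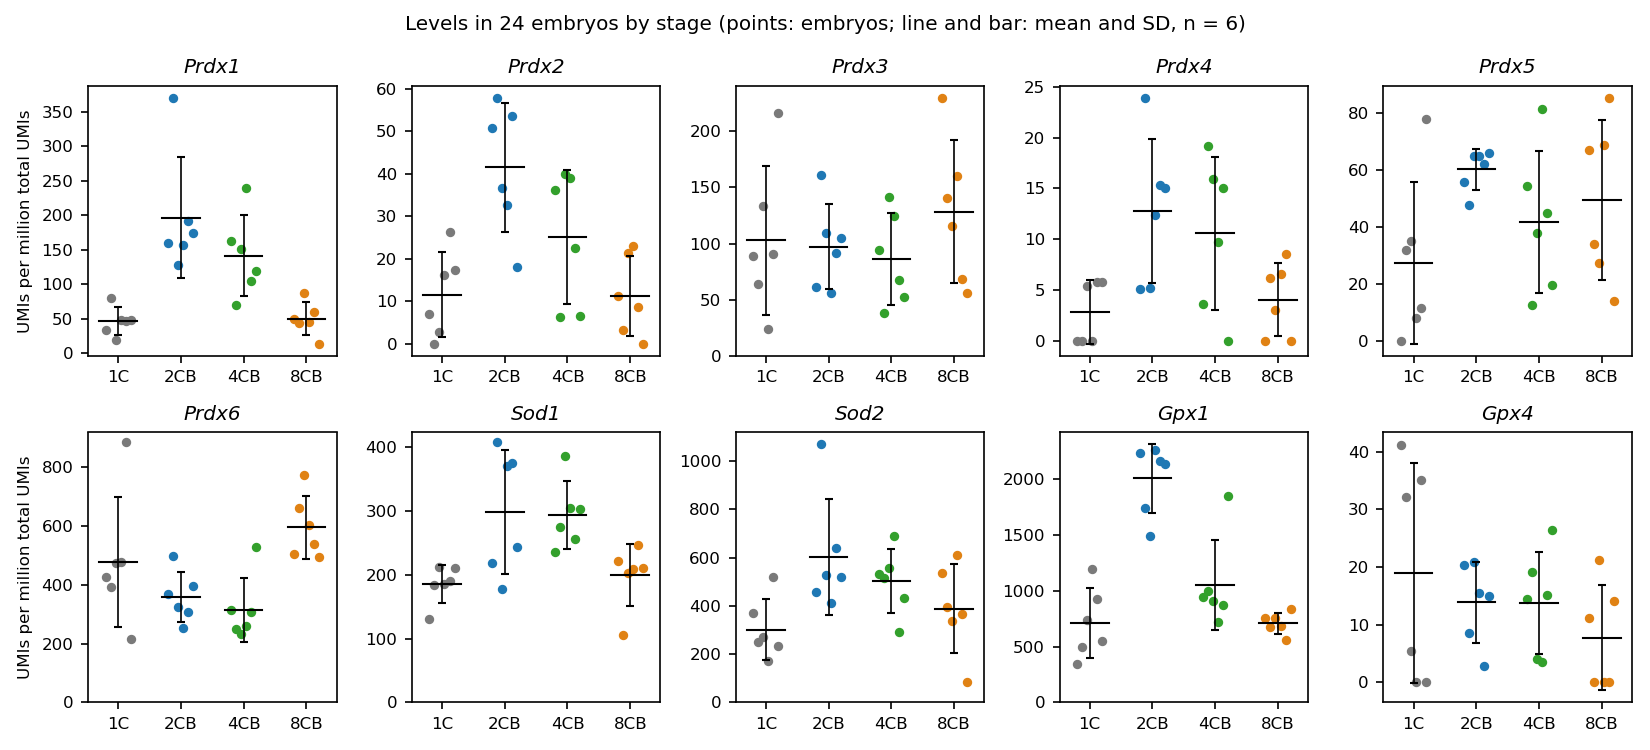
CPM of each of the 10 enzymes in every embryo, with 1 panel per gene, 1 point per embryo and the blastomere stage of origin on the horizontal axis. The mean of 6 embryos is drawn as a line and their SD as a bar. Prdx1 lies between 14.1 and 88.1 CPM in 1C and 8CB embryos and between 70.2 and 369 CPM in 2CB and 4CB embryos, whereas Prdx6 has its highest median, 570.0 CPM, in 8CB embryos.

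Whether the enzymes differed between embryos of different origin was first asked across the 4 stages. Prdx1, Prdx2, Prdx6, Sod1, Sod2 and Gpx1 differed among stages, which is 6 of the 8 enzymes that had enough counts to be tested, beside 47.1% of all 5940 genes tested (edgeR's quasi-likelihood test, Benjamini-Hochberg adjusted p below 0.1). The adjusted p was 1.90e-05 for Prdx1, 1.51e-05 for Gpx1, 0.0136 for Prdx6, 0.0236 for Prdx2, 0.0422 for Sod1 and 0.0698 for Sod2. The filter on low counts was met by Prdx2 only through 2CB and 4CB embryos, as given below, so its call adds no support. The calls of Prdx1, Prdx2, Prdx6 and Gpx1 held without each of the 24 embryos in turn, whereas that of Sod2 was lost in 17 of these 24 fits and that of Sod1 in 4 (without 1C replicate 1, 2CB replicate 2, 2CB replicate 4 or 4CB replicate 3). Thinning to equal depth lost both, and Sod1 was also lost with no filter on low counts. For Prdx3 and Prdx5 the adjusted p was 0.563 and 0.400. Prdx4 and Gpx4, with 106 and 102 UMIs in all embryos, were too low to be tested in this way.

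In 2CB and 4CB embryos against 1C and 8CB embryos, 5 of the 8 enzymes rose (Prdx1, Prdx2, Gpx1, Sod1 and Sod2) and Prdx6 fell. The background was 55.3% of all genes called, 31.3% higher and 24% lower, so that a called gene was common in this comparison. The median log2 fold change was 0.62 over the 8 enzymes, which ranged from -0.70 to 1.76, and 0.12 over all genes tested. Prdx2 passed the filter on low counts only through 2CB and 4CB embryos, of which 8 reached the required level, against 0 of the 1C and 8CB embryos. A gene that passes in this way had to differ, so its call adds no support, and without it 4 of 7 enzymes rose and 1 fell, with a median of 0.60. No value of the 8 enzymes was free of overlap between the 12 and 12 embryos, beside 3.54% of genes that were higher and 2.21% that were lower without overlap.

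Prdx1 (chr4:116685544-116700822, + strand, GRCm38) encodes an abundant cytosolic peroxiredoxin that also acts as a chaperone. In 1C embryos its level was 19.0 CPM in the lowest, 47.6 at the median and 80.2 in the highest, and 8CB embryos were alike with 14.1, 48.2 and 88.1 CPM. It reached 128, 167 and 369 CPM in 2CB embryos and 70.2, 135 and 239.7 CPM in 4CB embryos. Of the 12 2CB and 4CB embryos, 11 lay above all 1C and 8CB embryos and all 12 lay above their median. The fitted log2 fold change was 1.76 (SE 0.26, a fold of 3.40), with an adjusted p of 1.95e-06. It was 1.67 when every embryo was thinned to the depth of the shallowest.

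Prdx2 (chr8:84969587-84974834, + strand) encodes the close cytosolic relative of PRDX1 that is best known from red blood cells. Its level was far less precisely measured, from 322 UMIs in all. It was 0, 11.5 and 26.2 CPM at the lowest, median and highest in 1C, 0, 9.87 and 22.9 CPM in 8CB, 18.0, 43.6 and 57.7 CPM in 2CB, and 6.38, 29.4 and 39.9 CPM in 4CB embryos. For the 2 embryos with no Prdx2 UMI, 3 counts correspond to 24.05 and 42.3 CPM, so these zeros allow levels in the range of the other stages. The log2 fold change between the pairs of stages was 1.38 (SE 0.41, adjusted p 0.00597), or 1.99 when every embryo was thinned to the depth of the shallowest, and 8 of the 12 2CB and 4CB embryos lay above all of the others. As given above, the gene was tested only because of its level in these embryos. The last exon of Prdx2 overlaps Junb, which lies on the opposite strand and had 169 UMIs, and its start overlaps Rnaseh2a, with 240 UMIs on the opposite strand. The strand setting of the counting was not given in the sources used here, so Prdx2 carries that uncertainty.

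Prdx6 (chr1:161240112-161251219, - strand) encodes the peroxiredoxin with a single catalytic cysteine, which takes its electrons from glutathione and reduces oxidized phospholipids. It moved in the other direction. The lowest, median and highest levels were 216, 450.3 and 884 CPM in 1C, 493, 570.0 and 772 CPM in 8CB, 252, 347 and 497 CPM in 2CB, and 231, 285 and 527 CPM in 4CB embryos. The 1C embryos spanned the range of all the others, whereas the lowest 8CB embryo was close to the highest 2CB embryo. Prdx6 fell by 0.70 on the log2 scale (SE 0.19, adjusted p 0.00288), and 11 of the 12 2CB and 4CB embryos lay below the median of 1C and 8CB.

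Prdx1 and Prdx6 thus moved in opposite directions within the same family. For each embryo, Prdx1 UMIs were counted per 100 Prdx6 UMIs, a ratio that does not depend on the depth or scaling of the embryo and that was chosen after the directions had been seen, so no test is given. The lowest, median and highest ratios were 4.0, 9.12 and 22.7 in 1C and 2.86, 8.80 and 11.4 in 8CB embryos, against 39.2, 53.0 and 74.4 in 2CB and 22.5, 42.9 and 91.9 in 4CB embryos. The sum of the 6 peroxiredoxins, in contrast, was 556 to 1064 CPM (median 719) in 1C and 8CB embryos and 396 to 1156 CPM (median 685) in 2CB and 4CB embryos, and the former range lies within the latter.

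**Figure D2:**
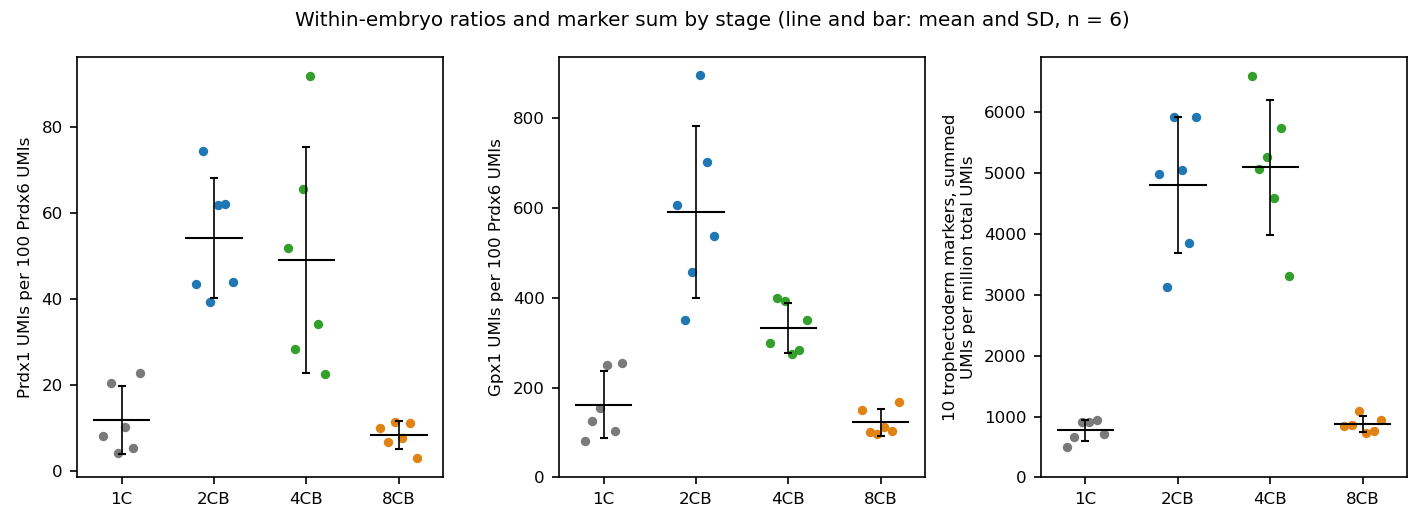
UMIs of Prdx1 and of Gpx1 per 100 UMIs of Prdx6 in every embryo, and the summed CPM of 10 trophectoderm markers in the same embryos, by stage of origin. The ratio of Gpx1 to Prdx6 is 80.6 to 254.7 in 1C and 8CB embryos and 274.6 to 895 in 2CB and 4CB embryos, and the marker sums are likewise separate.

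Prdx3 and Prdx5, the peroxiredoxins of mitochondria (Prdx5 is also found in peroxisomes and the cytosol), did not pass the test between the pairs of stages. Prdx3 (chr19:60864051-60874556, - strand) was at 24.3, 89.8 and 216 CPM at the lowest, median and highest in 1C, 56.4, 128 and 229.9 CPM in 8CB, 55.7, 98.5 and 161 CPM in 2CB and 38.3, 81.0 and 142 CPM in 4CB embryos. Its log2 fold change was -0.39, with a 95% interval of -0.94 to 0.16 and an adjusted p of 0.263. All 4 stages overlapped widely for this gene. When every embryo was thinned to the depth of the shallowest in a single random draw, however, Prdx3 passed the threshold narrowly at a log2 fold change of -0.73 (adjusted p 0.0961).

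Prdx5 (chr19:6906697-6910106, - strand) was at 0, 21.9 and 77.9 CPM in 1C, 14.1, 50.8 and 85.3 CPM in 8CB, 47.8, 63.6 and 66.1 CPM in 2CB and 12.8, 41.5 and 81.4 CPM in 4CB embryos. The 6 2CB embryos lay within the range of each of the other stages but were the closest together. The gene overlaps Trmt112 on the opposite strand, which had 1 UMI. The log2 fold change of Prdx5 was 0.37 (95% interval -0.33 to 1.06, adjusted p 0.411). It was called without 1 embryo, 1C replicate 6, at 0.70 (adjusted p 0.0959). Over the 24 fits that each left out 1 embryo its change ran from 0.14 to 0.70, and the adjusted p was highest, at 0.785, without 4CB replicate 4.

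Prdx4 (chrX:155323918-155340754, - strand) encodes the peroxiredoxin of the endoplasmic reticulum, which passes oxidizing power to folding proteins. It was at the edge of detection, with 6 UMIs each over all 1C and all 8CB embryos, 69 over 2CB and 25 over 4CB, and none in 6 embryos, where 3 counts correspond to 8.41 to 42.3 CPM. The lowest, median and highest levels were 0, 2.71 and 5.83 CPM in 1C, 0, 4.63 and 8.53 CPM in 8CB, 5.08, 13.7 and 23.9 CPM in 2CB and 0, 12.4 and 19.1 CPM in 4CB embryos. In a fit without the filter on low counts, in which 23.8% of 23171 genes were called, its log2 fold change was 1.47 (SE 0.64, adjusted p 0.0928).

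Gpx1 (chr9:108338903-108340343, + strand) encodes the cytosolic and mitochondrial glutathione peroxidase, a selenoprotein. It was counted most deeply of the 10, with 12687 UMIs. Levels were 343, 642 and 1197 CPM at the lowest, median and highest in 1C and 554, 717 and 832 CPM in 8CB embryos. They were 1491, 2146 and 2258 CPM in 2CB embryos, all above every 1C and 8CB embryo. In 4CB embryos they were 717, 926 and 1845 CPM, and 5 of these 6 embryos lay within the range of 1C. The log2 fold change between the pairs of stages was 1.01 (SE 0.18, a fold of 2.02, adjusted p 3.03e-05).

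Sod1 (chr16:90220742-90226322, + strand), the copper and zinc dismutase of the cytosol, and Sod2 (chr17:13007839-13018119, + strand), the manganese dismutase of the mitochondrial matrix, rose by similar amounts. For Sod1 the lowest, median and highest levels were 130.4, 188 and 212 CPM in 1C, 106, 211 and 247 CPM in 8CB, 177, 307 and 408 CPM in 2CB and 236, 289 and 387 CPM in 4CB embryos. Its log2 fold change was 0.60 (SE 0.18, adjusted p 0.00547), with 8 of the 12 2CB and 4CB embryos above all of the others. At the depth of the shallowest embryo this call was lost, with a log2 fold change of 0.44 and an adjusted p of 0.148.

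For Sod2 the levels were 169.9, 260.0 and 519 CPM in 1C, 84.6, 381 and 612 CPM in 8CB, 412, 524 and 1070.0 CPM in 2CB and 294, 525 and 689 CPM in 4CB embryos. Its log2 fold change was 0.64 (SE 0.23, adjusted p 0.0211), and 3 of the 12 2CB and 4CB embryos lay above all 1C and 8CB embryos. The number of Sod1 UMIs per 100 Sod2 UMIs overlapped, at 26.8 to 250 with a median of 63.9 in 1C and 8CB embryos and 33.5 to 89.8 with a median of 50.4 in 2CB and 4CB embryos. Because libraries of this kind read only the end of a transcript, similar sequence there can move reads between genes. The last 300 bases of the Sod2 transcript examined matched 152 other genes on the same strand at 90% identity or more over at least 100 bases, and 132 of these had UMIs, so that its counts are uncertain in this respect. For Prdx1 and Sod1 the only such matches in the table had 0 UMIs, and Prdx2 to Prdx6 and Gpx1 had none on the same strand.

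The promoters of Prdx1 and Sod1 are shown because they were the only 2 of 9 enzymes with a listed RefSeq promoter that held a match to the antioxidant response element, the site of the stress factor NRF2. The letters searched were TGACNNNGC, on both strands, in the 250 bases before each listed start, and 10.2% of all 32851 such windows held them. The sequences below run from the start of that window to the base before the gene's start in the count table, on the gene's strand, with the match in capitals (RefSeq, GRCm38.p6).
Prdx1 chr4:116685349-116685543, + strand: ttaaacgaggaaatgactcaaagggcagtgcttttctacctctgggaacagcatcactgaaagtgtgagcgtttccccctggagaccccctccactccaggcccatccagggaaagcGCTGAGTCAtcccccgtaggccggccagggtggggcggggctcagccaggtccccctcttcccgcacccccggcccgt
Sod1 chr16:90220512-90220741, + strand: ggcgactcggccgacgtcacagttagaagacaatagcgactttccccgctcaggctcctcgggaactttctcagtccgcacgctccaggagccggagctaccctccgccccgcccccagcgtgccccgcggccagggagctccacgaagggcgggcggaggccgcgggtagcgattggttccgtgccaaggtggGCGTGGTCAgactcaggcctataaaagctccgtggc
In both, the match reads as the element on the other strand, TGACTCAGC for Prdx1 and TGACCACGC for Sod1, and it ends 70 bases before the start of Prdx1 and 28 bases before the start of Sod1. The Prdx1 window also held 2 matches to the AP-1 letters TGANTCA, of which 1 overlaps the element, and none of the other 8 enzymes held these letters, found in 6.75% of windows. The GC box GGGCGG was found for 7 of the 9 enzymes and in 32.7% of all windows. Prdx2, Gpx1 and Sod2, which also rose, held no match to the antioxidant response element. A match describes letters and not a bound site, and Prdx6 was not in the promoter table.

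Gpx4 (chr10:80047166-80056439, + strand) encodes the glutathione peroxidase that reduces lipid peroxides within membranes and thereby protects cells from ferroptosis. Its row in the table held only 102 UMIs, whereas the row of Gpx4-ps2, a processed pseudogene on the same chromosome (chr10:45875291-45876086, + strand), held 6537. The aligned parts of the first-listed coding transcript of Gpx4 (995 bases, 7 exons) and of a transcript of Gpx4-ps2 (782 bases, 1 exon) were identical over 733 bases except for 2 substitutions, C384T and C699T, where positions are counted from the first base of the Gpx4 transcript and the Gpx4 base is given first. The last 296 bases of the Gpx4 transcript, where reads of this method are expected to fall, were identical in both. The stretches around the substitutions, which lie in exons 3 and 6 of that transcript and in its coding part, are given with the differing base in capitals (GRCm38, + strand).
Gpx4 at C384T, chr10:80054710-80054738: tgcatcgtcaccaaCgtggcctcgcaatg
Gpx4-ps2 at C384T, chr10:45875441-45875469: tgcatcgtcaccaaTgtggcctcgcaatg
Gpx4 at C699T, chr10:80056043-80056071: ctcattgataagaaCggctgcgtggtgaa
Gpx4-ps2 at C699T, chr10:45875756-45875784: ctcattgataagaaTggctgcgtggtgaa
Within the aligned part, a read that covers neither of these bases cannot be told apart between the gene and its copy.

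The Gpx4 row took 1.54% of the UMIs of both rows (95% exact binomial interval 1.25 to 1.86, counting error only). Over single embryos this share ran from 0% to 12% for 1C and 0% to 2.46% for 8CB, and from 0.568% to 2.22% for 2CB and 0.844% to 2.35% for 4CB embryos, so the stages overlapped. The Gpx4 row itself was at 0, 18.7 and 41.2 CPM at the lowest, median and highest in 1C, 2.87, 15.2 and 20.9 CPM in 2CB, 3.54, 14.8 and 26.4 CPM in 4CB and 0, 5.61 and 21.3 CPM in 8CB embryos, and it was at 0 UMIs in 5 embryos, where 3 counts correspond to 8.66 to 25.6 CPM. The Gpx4-ps2 row was at 302, 681 and 1319 CPM in 1C, 502, 925 and 1275 CPM in 2CB, 249, 762 and 1232 CPM in 4CB and 540.4, 816 and 1593 CPM in 8CB embryos. The 4 stages overlapped in both rows. When the rows were summed, the log2 fold change between these pairs of stages was 0.02 (SE 0.24, adjusted p 0.966), against 0.00 with an SE of 0.55 for the Gpx4 row alone in the fit without a filter.

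**Figure D3:**
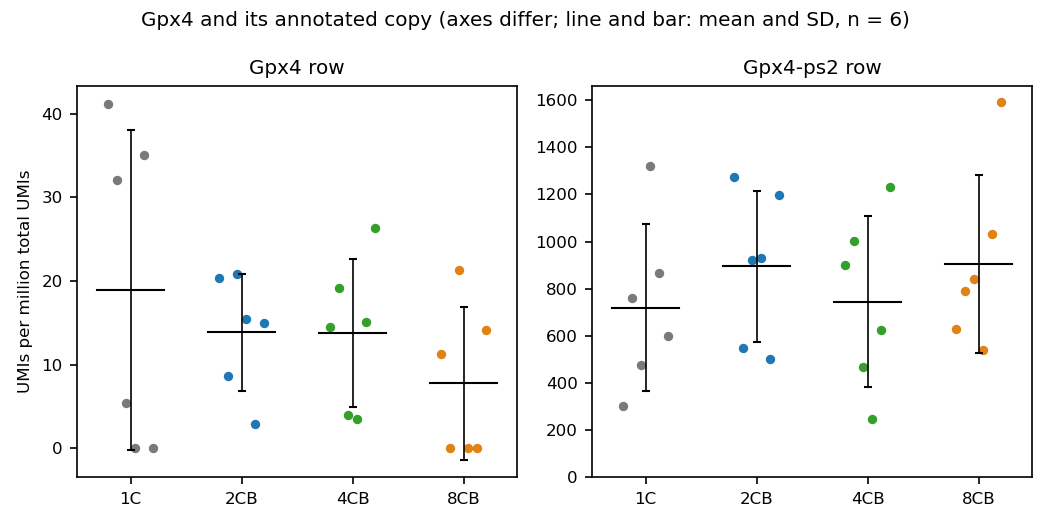
CPM of the Gpx4 row and of the row of its processed pseudogene Gpx4-ps2 in every embryo, by stage of origin, with 1 point per embryo. The pseudogene row lies between 249 and 1593 CPM and the Gpx4 row between 0 and 41.2 CPM, and neither separates the stages.

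The other genes of these families had few or no UMIs in most embryos. Sod3, the extracellular dismutase, had 0 UMIs in 24 embryos, which allows up to 0.312 CPM (3 counts over all UMIs). Gpx3, the secreted glutathione peroxidase, had 1 and 4 UMIs in the 1C and the 8CB embryos and 144 and 44 in the 2CB and the 4CB embryos, with means of 41.3 CPM in 2CB and 18.5 CPM in 4CB. Gpx2, Gpx5, Gpx6, Gpx7, Gpx8 and Prdx6b had 2 to 24 UMIs each. Cat, the peroxisomal catalase, had means of 12.2 and 19.7 CPM in 1C and 8CB and of 21.9 and 27.2 CPM in 2CB and 4CB embryos. None of these passed the filter on low counts.

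Which of the pairs of groups carried the differences was asked by setting 2CB against 1C and 4CB against 8CB, comparisons that share no embryo. In 2CB against 1C, Prdx1, Prdx2, Gpx1, Sod1 and Sod2 rose, 5 of the 8 enzymes tested beside 41.5% of all genes (24% higher and 17.5% lower). Prdx1 rose by 2.14 on the log2 scale (SE 0.37, adjusted p 5.37e-05). For Gpx1 the rise was 1.52 (SE 0.26, adjusted p 4.25e-05), and for Prdx2 it was 1.73 (SE 0.56, adjusted p 0.0179). Prdx2 was not testable when only 2CB and 1C embryos were fitted, where 4 of 7 enzymes were called, so its call adds no support here either. These 2 stages did not overlap for Prdx1 and Gpx1, beside 9.73% of genes that were higher and 6.14% that were lower without overlap. Sod2 rose by 1.00 (SE 0.33, adjusted p 0.0180). Sod1 rose by 0.69 (SE 0.25, adjusted p 0.0301), a call that was lost without 1C replicate 1 (adjusted p 0.102) or without 2CB replicate 2 (adjusted p 0.113), with no filter on low counts (adjusted p 0.121) and at equal depth (adjusted p 0.154). The values for Prdx5, Prdx6 and Prdx3 were 0.97 (adjusted p 0.136), -0.40 (adjusted p 0.242) and -0.15 (adjusted p 0.797), and without 1C replicate 6 both Prdx5 (1.66, adjusted p 0.0160) and Prdx6 (-0.59, adjusted p 0.0853) were called. DESeq2 called Prdx5 with all embryos (1.03, adjusted p 0.0898).

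In 4CB against 8CB, 2 of the 8 enzymes were called beside 40.2% of all genes (23.2% higher and 17% lower). Prdx1 rose by 1.38 (SE 0.36, adjusted p 0.00407) and Prdx6 fell by 0.99 (SE 0.27, adjusted p 0.00540). Gpx1 was at 0.51 (SE 0.25, adjusted p 0.124) and Sod1 at 0.52 (SE 0.25, adjusted p 0.114), and both were called by DESeq2 (adjusted p 0.0658 and 0.0580) and with its size factors in edgeR (adjusted p 0.0867 and 0.0805), which makes 4 of 8. Sod2 and Prdx2 were at 0.29 (SE 0.32) and 1.03 (SE 0.58). None of the enzymes was free of overlap here, beside 8.27% of genes higher and 4.75% lower without overlap.

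Whether both comparisons differed from each other was tested directly, as 4CB against 8CB minus 2CB against 1C. No enzyme passed, beside 0% of all genes in edgeR's test, of which 532 had an unadjusted p below 0.05 and 34 were called by DESeq2. The difference was -1.01 for Gpx1 (SE 0.36, unadjusted p 0.00831, adjusted p 0.377) and -1.21 for Prdx5 (adjusted p 0.633). It was -0.76 for Prdx1, with a 95% interval of -1.76 to 0.24.

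**Figure D4:**
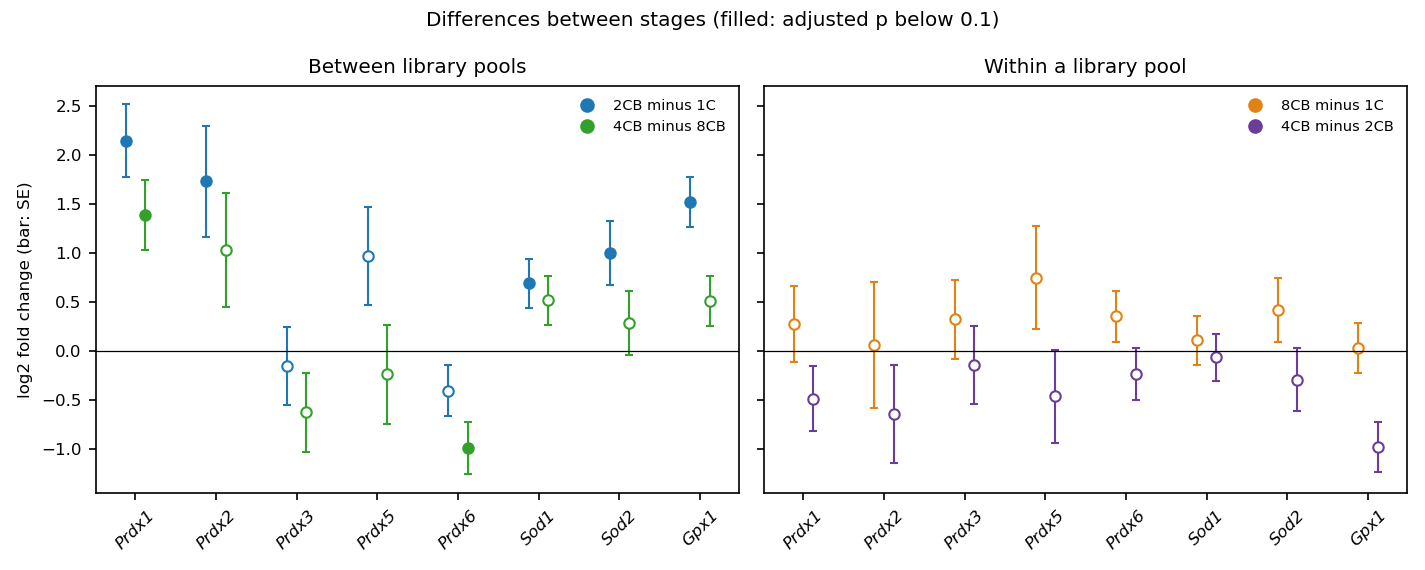
Fitted log2 fold changes of the 8 enzymes tested, with bars of 1 SE, for the comparisons across the library pools (2CB against 1C and 4CB against 8CB, left) and within a pool (8CB against 1C and 4CB against 2CB, right). Prdx1 is at 2.14 and 1.38 on the left, Prdx6 at -0.40 and -0.99, and Gpx1 stands lowest on the right at -0.98 for 4CB against 2CB.

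Within the pools, where stage is not tied to the library, no enzyme passed the test. In 8CB against 1C no enzyme was called, beside 0% of all genes in edgeR's test, of which 550 had an unadjusted p below 0.05 and 43 were called by DESeq2. The log2 fold changes ran from 0.03 for Gpx1 (95% interval -0.47 to 0.53) to 0.74 for Prdx5 (95% interval -0.28 to 1.77, adjusted p 0.676). For Prdx1 the interval was -0.49 to 1.04, and for Prdx6 it was -0.16 to 0.87. All 8 intervals held 0, and each but that of Gpx1 also held 0.60, the change of Sod1 between the pairs of stages.

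In 4CB against 2CB no enzyme was called either, beside 0.0337% of all genes, which is 2 genes, with 263 at an unadjusted p below 0.05. Gpx1 came nearest. Its median was 2146 CPM in 2CB and 926 CPM in 4CB embryos, with a fitted log2 fold change of -0.98 (SE 0.25, unadjusted p 0.000523, adjusted p 0.316). In 5 of 6 4CB embryos it was below every 2CB embryo, and 4CB replicate 6, at 1845 CPM, lay within the range of 2CB. Without that embryo the log2 fold change was -1.22 and the adjusted p 0.0778, and DESeq2 called Gpx1 with all embryos (adjusted p 0.0851). The other 7 enzymes had log2 fold changes between -0.64, for Prdx2, and -0.07, for Sod1, with adjusted p of 1.00.

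The sum of the 10 enzymes followed Gpx1, its most counted member. It was 1441 to 2730 CPM (median 1735) in 1C, 1720 to 2411 CPM (median 2201) in 8CB, 2004 to 3334 CPM (median 2431) in 4CB and 2888 to 4385 CPM (median 3656) in 2CB embryos. The 2CB embryos lay above all 1C and 8CB embryos, and the 4CB embryos overlapped with all other stages.

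Variation among embryos of the same stage is given as a description. Deviations of log2 levels from the stage means, over 24 embryos that share libraries and differ in depth, correlated at 0.59 for Sod2 with Prdx3, both mitochondrial, at 0.55 for Prdx1 with Sod2 and at 0.53 for Prdx1 with Prdx2. Of the 28 pairs of enzymes, 20 were positive and 8 negative. Replicate 2 of 2CB lay far above the other 2CB embryos for both Prdx1 and Sod2. The lowest value was -0.41, for Gpx1 with Prdx3. Gpx1 with Prdx1, both higher in 2CB and 4CB embryos, were at -0.19.

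Genes that feed or regulate these enzymes were then taken from 7 lists. Of their 87 genes, 45 were tested between the pairs of stages, and 15 rose and 9 fell, 53.3% in all beside 55.3% of all genes, with a median log2 fold change of 0.17 beside 0.12. The share called was thus near the background. Of the 24 called genes, 5 (Acsl4, Eefsec, Glrx, Mgst3 and Pgls) reached the level of the filter in 0 embryos of the lower side, so they were tested only through the side where they are high. Gsta4, Txndc17, Gss and G6pdx reached it in 2 embryos of the lower side and Sephs2 in 5, fewer than the 6 needed. Slc31a1 and Hmox1 reached it in 1 embryo of the lower side and 5 of the other. The calls of all these genes add no support, here and in the lists below. No gene of the lists was called within a pool.

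The list of NADPH supply, the source of reducing power for both routes, had 4 genes that rose and 0 that fell of 10 tested, with a median of 0.40. Pgls, an enzyme of the oxidative pentose phosphate pathway, rose by 3.14 (SE 0.33, adjusted p 8.45e-09), and G6pdx, which starts that pathway, by 1.29 (SE 0.44, adjusted p 0.0157). Me1, the cytosolic malic enzyme, and Taldo1, a transaldolase, rose by 1.12 and 0.87. In the thioredoxin system 3 of 7 genes rose and 2 fell (median 0.05). Txn1 and Txn2, the cytosolic and mitochondrial thioredoxins, rose by 0.53 (SE 0.21, adjusted p 0.0344) and 0.55 (SE 0.19, adjusted p 0.0195), and Txndc17 rose by 1.14. Sesn2, a stress-induced sestrin, fell by 1.05 on the log2 scale, and Txnrd1, the cytosolic thioredoxin reductase, was at 0.00 (adjusted p 0.998).

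For glutathione synthesis, transfer and glutaredoxins, 4 of 11 genes rose and 2 fell (median 0.17). Gsta4, a glutathione transferase for lipid aldehydes, had mean levels of 17.8 CPM in 1C and 12.1 CPM in 8CB embryos, against 548 CPM in 2CB and 477 CPM in 4CB embryos, and it rose by 5.09 (SE 0.37, adjusted p 1.05e-11). Glrx, a glutaredoxin, rose by 4.16 (SE 0.49). Mgst3, a microsomal transferase, had 0 UMIs in 1C and 8CB embryos and means of 53.0 and 30.7 CPM in 2CB and 4CB embryos, so that it was tested only because of its level in 2CB and 4CB and had to differ. Gsto1, an omega-class transferase, fell by 1.25 on the log2 scale (SE 0.25, adjusted p 0.000154). The other called genes act in synthesis itself: Gss, glutathione synthetase, rose by 1.14 (SE 0.35, adjusted p 0.00796), and Gclm, the modifier subunit of the enzyme of the first step, fell by 1.13 on the log2 scale (SE 0.35, adjusted p 0.00864). Gclc, the catalytic subunit of that enzyme, was at 0.40 (adjusted p 0.401), and Gsr, which regenerates glutathione, at -0.62 (adjusted p 0.198).

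Of the NRF2 regulators and targets outside the other lists, 0 rose and 3 fell of 7 tested (median -0.44). These were Hmox1, the inducible heme oxygenase, at -1.89 (SE 0.53, adjusted p 0.00430), Sqstm1, the autophagy receptor p62, at -1.15 (SE 0.35, adjusted p 0.00692), and Bach1, which represses many of the same targets, at -0.71 (SE 0.27, adjusted p 0.0294). Keap1, which holds NRF2 in check, was at 0.32 (adjusted p 0.472). The counts depend on how the lists were divided, because genes known as NRF2 targets stand in other lists, where G6pdx, Me1, Taldo1 and Txn1 rose, Gclm fell, and Gclc, Gsr and Txnrd1 did not pass the test. The list was not tested as a whole.

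For selenoprotein synthesis and copper loading, 3 of 6 genes rose and 1 fell (median 0.68). Gpx1 and Gpx4 carry selenocysteine, and of the genes that make or insert it Eefsec, the elongation factor for selenocysteine, rose by 2.52 (SE 0.36, adjusted p 1.52e-06), Sephs2, which makes its selenium donor, rose by 1.39, and Sephs1, a relative of Sephs2, fell by 0.74 on the log2 scale. Slc31a1, the copper importer, rose by 1.18 (SE 0.45, adjusted p 0.0318). Among metallothioneins and lipid peroxide defence, Park7, a redox-sensitive protein linked to Parkinson disease, rose by 1.17 (SE 0.21, adjusted p 3.03e-05) and Acsl4, which loads membranes with oxidizable lipids, fell by 2.02 on the log2 scale (SE 0.45, adjusted p 0.000442), of 4 genes tested (median 0.28). The list of other peroxidases and dismutases had none of its 9 genes tested.

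**Figure D5:**
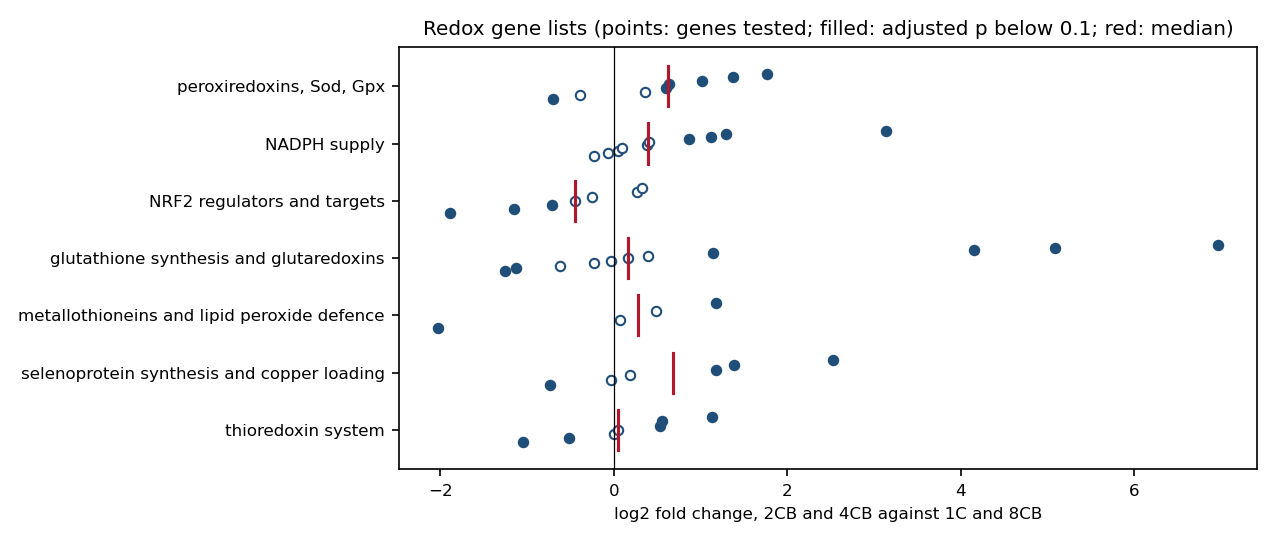
Log2 fold changes of 2CB with 4CB over 1C with 8CB for the tested genes of each list of redox genes, with 1 point per gene and called genes filled. The NADPH supply list has 4 called genes above 0 and none below, and the list of NRF2 regulators and targets outside the other lists has 3 below and none above, beside 31.3% of all genes higher and 24% lower. Among these called genes, Pgls, G6pdx and Hmox1 passed the filter on low counts mainly through the side where they are high.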

How the data were processed

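Single-embryo CEL-Seq2 libraries (3′ tag counting, Illumina HiSeq 1500) had been aligned to GRCm38 with HISAT2 2.2.6 and counted with HTSeq 0.6.1, according to the study's methods; annotation release and strand setting are not given in the sources used here. The deposited table holds whole-number UMI counts per gene and embryo, without normalization. Its stages come from the column names, and 24 further columns of per-sample values were not used. The published CEL-Seq2 protocol uses a UMI of 6 bases, which allows 4096 values, whereas the largest count in the table was 53029 (2627 among the 10 enzymes). The UMI length used is not given in the sources used here, and whether high counts are distinct UMIs was not tested.

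Counts were normalized with TMM and tested with edgeR 4.0.16 (quasi-likelihood F test, 1 mean per stage over 24 embryos, filterByExpr, 5940 genes kept) in R 4.3.3, with Benjamini-Hochberg adjustment over all genes tested and calls at an adjusted p below 0.1. SE was derived from F, and 95% intervals are 1.96 SE. Transcript sequences (GENCODE M21) were compared with blastn and promoters taken from RefSeq. CPM is per 1000000 total UMIs. The labels do not say whether embryos came from separate inseminations, so p-values measure the spread between these embryos. Embryos that carry the same replicate number were not treated as pairs, since their deviations from stage means correlated at -0.0156 on average over 36 pairings. On simulated counts of 5940 genes, 200 of them changed between the pairs of stages, 49.2% of log2 changes of 1 and 96.9% of changes of 2 were recovered, with 10.5% and 8.27% false among the calls. In the data 55.3% of genes were called in this comparison, a far larger share than was changed in the simulation, so these rates need not hold there. The alternatives were DESeq2 1.42.0, its size factors in edgeR, other filters, thinning to 70941 UMIs, a replicate block, fitting only the embryos compared and leaving out each embryo. Thinning was a single random draw, so calls near the threshold may differ in another draw, which was not tested.

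All 10 enzymes are named, and from each list up to 4 called genes with the largest change and a mean of at least 20 CPM. Gss, Gclm, genes given as not passing the test or not tested, the ratios of UMIs and the sum of the Gpx4 rows were chosen after values were seen. The enzymes and lists were chosen with earlier results of these data known. The adjusted p of the lists' genes come from the same fit.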

Additional observations from a re-analysis of the deposited data

Results flagged for a closer look

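In 6 of 40 groups of 6 embryos (10 genes in 4 stages) 1 embryo lay far from the others, with a gap above Dixon's 95% critical value as a share of the group's range. Chance flags about 1 in 20 such groups. Prdx1 was at 369 CPM in 2CB replicate 2, against 128 to 191 CPM in the other 2CB embryos. The same embryo, which had the most UMIs of all (1507471), was also far above the others for Sod2, at 1070.0 CPM against 412 to 641 CPM. Gpx1 was at 1845 CPM in 4CB replicate 6, against 717 to 995 CPM, and Prdx6 was at 527 CPM in that embryo, against 231 to 315 CPM. Sod1 was low in 1C replicate 1, at 130.4 CPM against 184 to 212 CPM, and in 8CB replicate 2, at 106 CPM against 204 to 247 CPM.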

How the results depend on the processing

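Between 2CB and 4CB and 1C and 8CB, 6 to 7 enzymes were called under each alternative run; with all embryos thinned to equal depth the 6 included Prdx3 (-0.73) in place of Sod1 (0.44). No log2 fold change of an enzyme turned its sign in this comparison. In 2CB against 1C, Sod1 was lost at equal depth and with no filter, and Prdx5 was added by DESeq2. With only the embryos compared, Prdx2 was not tested outside 4CB against 2CB, and 4 of 7 enzymes were called in 2CB against 1C, 2 of 7 in 4CB against 8CB and 0 within the pools. Leaving out each embryo in turn gave 4 to 6 enzymes called among the 4 stages, 6 to 7 between the pairs of stages, 4 to 7 in 2CB against 1C, 2 to 2 in 4CB against 8CB, 0 to 1 in 4CB against 2CB and 0 to 0 in 8CB against 1C and in the difference. In 4CB against 2CB, 1 enzyme, Gpx1, was called with DESeq2, with no filter on low counts (adjusted p 0.0364) and without 4CB replicate 6, and 0 otherwise. In 4CB against 8CB, 4 were called with DESeq2 and 4 with DESeq2's size factors in edgeR, which add Gpx1 and Sod1 to Prdx1 and Prdx6; the cause was not tested. The log2 fold changes without 1 embryo were 1.57 to 1.85 for Prdx1, 1.20 to 1.56 for Prdx2 (1.99 at equal depth, against 1.38), -0.85 to -0.59 for Prdx6, 0.84 to 1.08 for Gpx1, 0.50 to 0.61 for Sod1 and 0.47 to 0.72 for Sod2. For Prdx5 and Prdx3, which were not called in the main fit, they were 0.14 to 0.70 and -0.56 to -0.22. With the replicate block, 6, 6, 5 and 2 enzymes were called among stages, between the pairs of stages, in 2CB against 1C and in 4CB against 8CB, as without it, and it changed no other call of an enzyme. Replicate numbers do not pair these embryos. Over all genes, the fit with no filter called 5525 of 23171 between the pairs of stages and 5197 among stages, against 3284 and 2797 of 5940; in 8CB against 1C, 4CB against 2CB and the difference it called 104, 48 and 112 and DESeq2 43, 10 and 34, against 0, 2 and 0. Prdx4 and the Gpx4 row, with 106 and 102 UMIs, were too shallow for the filtered fit.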
